A study of Mus musculus with 20 samples.

Results

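The genes described here encode enzymes that break down the branched-chain amino acids leucine, isoleucine and valine in mitochondria. They are Bcat2, Bckdha, Bckdhb, Dbt, Ivd, Mccc1, Mccc2, Pcca, Pccb and Hibadh, chosen by name, and each was found by its Ensembl identifier in the deposited table of gene counts. They make up 10 of its 46078 genes, and all 10 passed the filter on low counts, as did 21464 genes in all.

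Breakdown begins when Bcat2, the mitochondrial branched-chain aminotransferase, removes the amino group. The resulting ketoacids are decarboxylated by the branched-chain ketoacid dehydrogenase complex, whose E1 component is built from Bckdha and Bckdhb and whose E2 core is Dbt. After this step the routes part. Ivd and the methylcrotonyl-CoA carboxylase subunits Mccc1 and Mccc2 act on leucine, Hibadh acts on valine, and the propionyl-CoA carboxylase subunits Pcca and Pccb carry propionyl-CoA from isoleucine and valine towards the tricarboxylic acid (TCA) cycle. White adipocytes express the whole route, and its enzymes are known to be low in adipose tissue in obesity.

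The measurement was TRAP–seq of epididymal adipose tissue (epiAT), in which mRNA is recovered together with GFP-tagged ribosomes. All 20 mice were AdipoERCre x NuTRAP animals, with the background given as C576BL6 in the labels and as C57BL/N in the study's methods, and all had received tamoxifen before the diets began, so that the Adipoq-driven CreER switched on the ribosome tag in adipocytes. In the short arm, C mice ate chow and were 18 weeks old, H mice of the same age had eaten HFD for 12 weeks, CC_s mice ate chow and were 26 weeks old, and HC mice of that age had 12 weeks of HFD followed by 8 weeks of chow and weight loss (WL). Each of these groups held 3 mice. The long arm held 2 mice per group, of which CC_l mice ate chow and were 31 weeks old, HH mice of the same age had eaten HFD for 25 weeks, CCC mice ate chow and were 39 weeks old, and HHC mice of that age had 25 weeks of HFD followed by 8 weeks of chow and WL. Ribosomes were pulled down from lysates of the whole frozen depot, so transcripts of other cells could be carried along, and in such bulk samples fewer cells of a type and less RNA per cell cannot be told apart.

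Depth was between 10710277 and 36738954 counts per mouse. Levels are given as log2 CPM, the read counts scaled to the size of the library after TMM normalization, with a prior count of 2. The summed level of 9 adipocyte markers was between 15327 and 131451 CPM, and that of 7 lymphocyte markers between 5.3 and 128 CPM. Replicates 1 and 2 of C, replicate 3 of HC and replicate 2 of CCC stood apart from the rest. Their summed level of 4 nuclear-retained RNAs (Malat1, Neat1, Meg3 and Kcnq1ot1) was between 20395 and 37596 CPM, against at most 12402 CPM in the other 16 mice. Their summed level of the 9 adipocyte markers was between 15327 and 31850 CPM. The other mice of their groups stood at 131451 (C), 74167 and 77425 (HC) and 67971 CPM (CCC). In H it was between 31333 and 56272 CPM and in HH between 26958 and 32167 CPM. Leaving these 4 libraries out thus also leaves out the mice lowest in adipocyte markers in C, HC and CCC. The summed level of the 10 breakdown genes was between 568 and 1193 CPM in these 4 libraries, so several medians and calls below are also given without them. Transcripts of epididymal epithelium and of spermatids were also uneven. The summed level of 5 epididymal epithelium genes was 1814 CPM in C replicate 1 and 885 CPM in H replicate 2, against at most 306 CPM elsewhere. That of 6 spermatid genes was 3330 CPM in CC_l replicate 1 and 508 CPM in HC replicate 3, against at most 123 CPM elsewhere. The comparisons between chow-fed ages, the subunit ratios and the medians of other gene lists are given with all 20 libraries only.

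In mm10, Ivd lies on the plus strand of chromosome 2 from 118861954 to 118882909 and Bckdhb on the plus strand of chromosome 9 from 83925145 to 84124240, and no exon of either overlaps another gene. Exons of Dbt, Mccc2 and Pccb also overlap none. Bcat2, Bckdha, Mccc1 and Pcca share exon bases with genes on the opposite strand (622, 1171, 613 and 241 bases), and Hibadh shares 122 with a gene on its own strand.

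In chow-fed mice, all 10 genes were well expressed. Per kilobase of exon, the highest median over the 10 chow-fed mice was that of Bckdhb (102 CPM per kb), followed by Bckdha (97.9), Pccb (76.1), Bcat2 (65.6), Ivd (42.0), Dbt (42.0), Mccc2 (27.5), Hibadh (21.0), Mccc1 (13.0) and Pcca (10.0). Single chow-fed mice spread from 58.2 to 166 CPM per kb for Bckdhb and from 22.9 to 131 for Bckdha, so the order of the leading genes is not firm. With the length of the principal transcript in place of all exons, Bcat2 led with 144 CPM per kb and Hibadh stood at 117, whereas Pcca remained lowest with 20.2. Of the propionyl-CoA carboxylase subunits, Pcca thus had the lowest median by exon length and Pccb one of the higher ones.

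**Figure D1:**
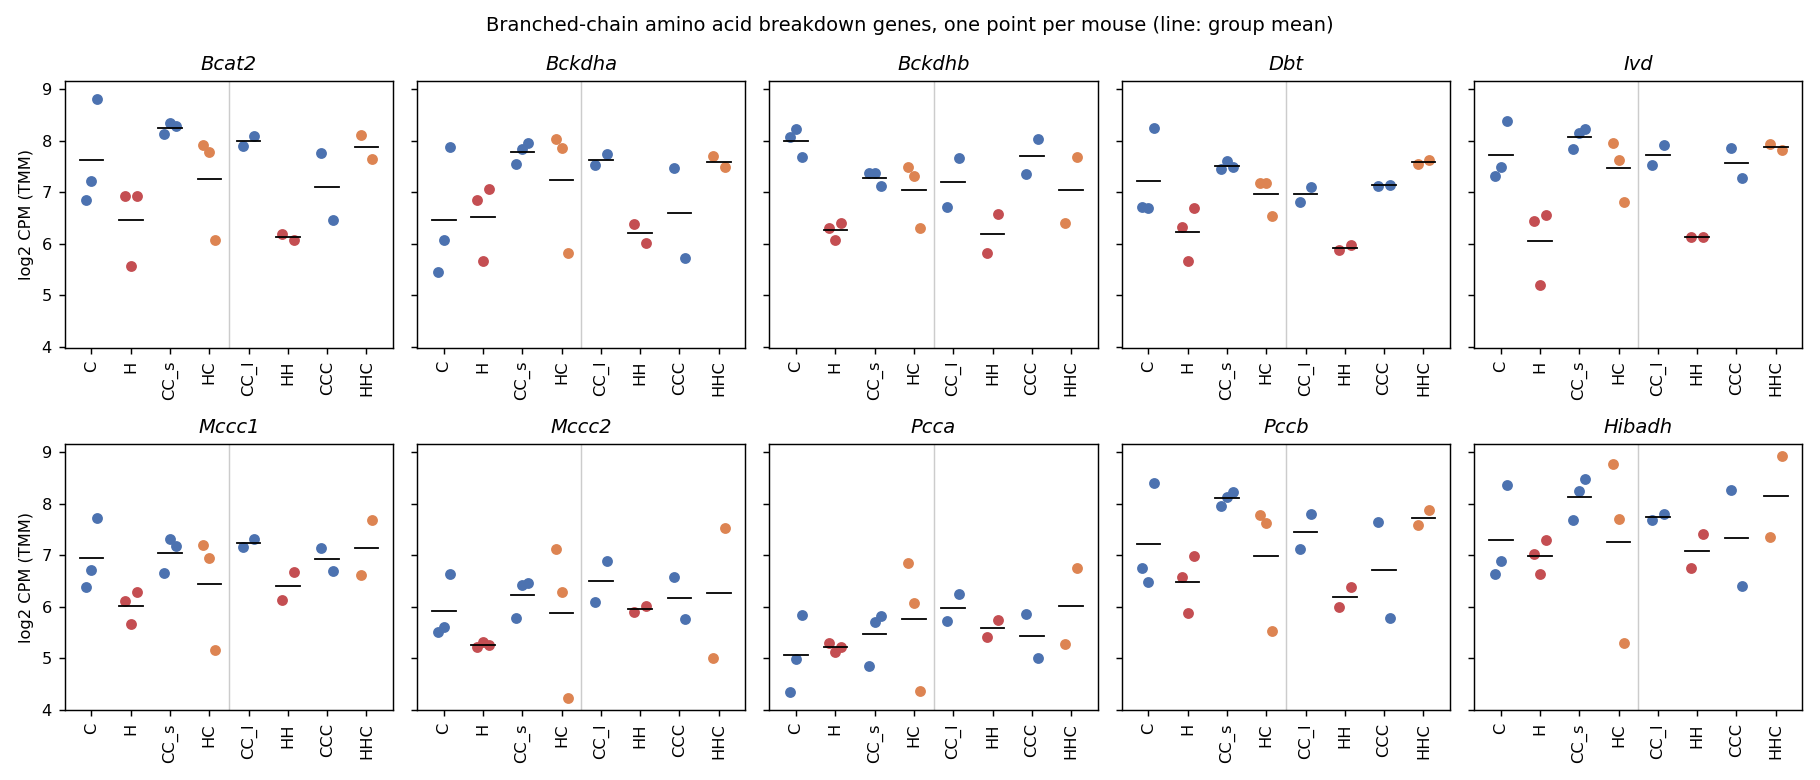
Level of each of the 10 genes in log2 CPM (vertical axis) in each of the 20 mice (points) by group (horizontal axis), with lines at the group means. The 5 Ivd points of H and HH lie between 5.20 and 6.56, below those of the other 15 mice.

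The first question was whether 12 weeks of HFD changed the levels of these genes in adipocytes. Bckdhb and Ivd were lower in H than in C and passed the cut-offs of the study, a nominal p under 0.01 together with a log2 fold change of 1 or more in either direction. Bcat2, Dbt and Mccc1 also had a nominal p under 0.05, which makes 5 of the 10 genes against 8.77% of all genes tested in this direction. The fitted log2 fold change was negative for 9 of the 10 genes with a median of -0.97, against a median of -0.15 over all genes tested, of which 56% were lower. Of all genes tested, 2.92% were called lower in H, and 2.12% had an adjusted p under 0.05.

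Bckdhb, the beta subunit of the E1 component, stood at 8.07, 8.23 and 7.68 log2 CPM in the C mice and at 6.31, 6.08 and 6.41 in the H mice. Every H mouse lay below every C mouse. The log2 fold change was -1.74 ± 0.42 (SE), with an adjusted p of 0.0413 (quasi-likelihood test of edgeR, adjusted by Benjamini-Hochberg over all genes tested). The 3 highest Bckdhb levels of all 20 mice came from C replicates 1 and 2 and CCC replicate 2, which also had high nuclear-retained RNA. Without the 4 libraries highest in that RNA, the log2 fold change of Bckdhb was -1.30. That fit leaves C replicate 3 as the only C mouse, so only the size is given.

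Ivd, isovaleryl-CoA dehydrogenase, which acts on leucine alone, stood at 7.31, 7.49 and 8.38 log2 CPM in C and at 6.44, 5.20 and 6.56 in H. Again the groups did not overlap. Its log2 fold change was -1.63 ± 0.42 (SE) with a nominal edgeR p of 0.00117 and an adjusted p of 0.0530. Without the 4 libraries, again with 1 C mouse, it was -2.09. When any 1 mouse of C or H was left out, Bckdhb lay between -1.88 and -1.62 and Ivd between -1.86 and -1.23, and both were still called.

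Bcat2, the first enzyme of the route, stood at 6.85, 7.22 and 8.80 log2 CPM in C and at 6.92, 5.57 and 6.93 in H. Here the groups overlapped, because C replicate 1 lay below 2 of the H mice. Its log2 fold change was -1.29 ± 0.56 (SE, adjusted p = 0.247), and leaving out C replicate 3 moved it to -0.45. Dbt, the core of the dehydrogenase complex, stood at 6.71, 6.69 and 8.24 in C and at 6.33, 5.67 and 6.70 in H. Its log2 fold change of -1.12 ± 0.40 (adjusted p = 0.162) moved to -0.41 without C replicate 3. C replicate 3 was thus the C mouse that set the size of both differences.

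The remaining members of the route spread more. Mccc1, the biotin-carrying subunit of methylcrotonyl-CoA carboxylase, stood at 6.37, 6.71 and 7.73 log2 CPM in C and at 6.11, 5.67 and 6.29 in H. Its partner Mccc2 stood at 5.51, 5.61 and 6.63 in C and at 5.21, 5.32 and 5.26 in H. Neither overlapped between the groups, and their log2 fold changes were -1.02 and -0.75 (adjusted p = 0.289 and 0.562). In all, 4 of the 10 genes (Bckdhb, Ivd, Mccc1 and Mccc2) were lower in H without overlap, as were 11.8% of all genes tested.

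Bckdha, Pcca, Pccb and Hibadh overlapped between C and H, with log2 fold changes of -0.20, 0.02, -0.93 and -0.50. Bckdha, the alpha subunit of E1, stood at 5.45, 6.08 and 7.88 log2 CPM in C and at 6.86, 5.67 and 7.06 in H. The C mice alone spanned more than the H mice did. Of the 1899 exon bases of Bckdha, 1171 are also exon of B3gnt8 on the opposite strand, and the strand setting of the counting is not given in the sources used here, so its counts are less certain than those of Bckdhb.

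The 2 C libraries that stood apart moved with these results. For each gene other than Bckdhb, C replicates 1 and 2 lay below C replicate 3. With the 4 libraries left out, C replicate 3 is the only C mouse and is assumed to vary like the other groups. The median was then -1.44, against 0.285 over all genes tested. With the log2 level of nuclear-retained RNA as a covariate, 8 genes were called lower and the median was -1.68, against 0.108 over all genes tested. In that fit 2713 of 21464 genes tested were called in either direction, against 1392 in the fit without the covariate. Leaving out C replicate 3 instead gave a median of -0.35, which shows that the size of the difference rests on which C mice are used. The parts of RNA quality and of the level of adipocyte markers in this result were not tested further.

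**Figure D2:**
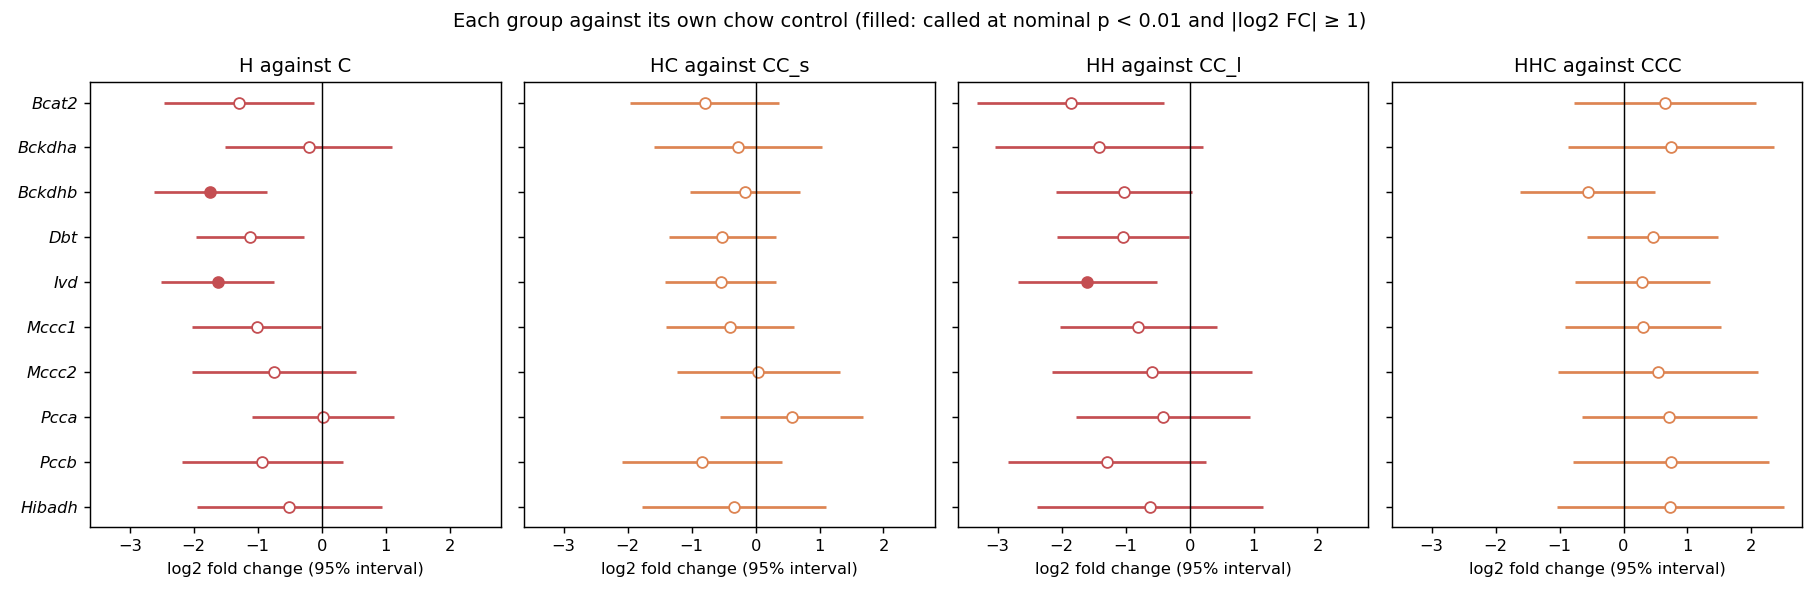
Fitted log2 fold change (horizontal axis) of each of the 10 genes in each HFD or WL group against its own chow control, with bars for the 95% confidence interval and filled points for genes past the cut-offs. The points of H and HH lie mostly to the left of 0, with filled points for Bckdhb and Ivd in H and for Ivd in HH.

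The second question was whether 25 weeks of HFD gave a like pattern. All 10 genes had a negative log2 fold change in HH against CC_l, with a median of -1.04 against -0.23 over all genes tested, of which 57.3% were lower. Ivd was the gene called, whereas 1.88% of all genes tested were called lower. Bcat2 and Dbt had a nominal p under 0.05 without reaching the cut-off, and 7.69% of all genes tested were lower at that level. No gene of the route had an adjusted p under 0.05, as 2.07% of all genes tested did. With 2 mice in each group, 9 of the 10 genes did not overlap, all but Pcca, but neither did 28.9% of all genes tested in the same direction.

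Ivd stood at 7.52 and 7.92 log2 CPM in CC_l and at 6.14 in both HH mice. Its log2 fold change was -1.60 ± 0.51 (SE) with a nominal edgeR p of 0.00625 and an adjusted p of 0.118. The call was lost when any 1 of the 4 mice was left out, with nominal edgeR p-values between 0.0106 and 0.0418. Bcat2 stood at 7.90 and 8.09 in CC_l and at 6.20 and 6.08 in HH, a log2 fold change of -1.86 ± 0.70 (adjusted p = 0.179). These were the genes with the most negative values in HH. CC_l replicate 1 also held transcripts of 6 spermatid genes (3330 CPM summed), and without it the log2 fold changes were -1.77 for Ivd and -1.94 for Bcat2.

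The genes of the dehydrogenase complex had log2 fold changes of about -1 or below in HH without passing the cut-offs. Bckdha stood at 7.52 and 7.74 log2 CPM in CC_l and at 6.39 and 6.02 in HH (log2 fold change -1.42, adjusted p = 0.350). Bckdhb stood at 6.72 and 7.68 in CC_l and at 5.82 and 6.57 in HH (-1.03, adjusted p = 0.302). Dbt stood at 6.81 and 7.11 in CC_l and at 5.88 and 5.97 in HH (-1.05, adjusted p = 0.283). In each of these genes both HH mice lay below both CC_l mice. Dld, a further gene of the complex that is on the wider list below, overlapped between the groups. It stood at 7.61 and 8.09 in CC_l and at 7.31 and 7.66 in HH.

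Further down the route, beside Ivd, the values lay nearer to 0 except for that of Pccb. Pccb, the beta subunit of propionyl-CoA carboxylase, stood at 7.13 and 7.79 log2 CPM in CC_l and at 5.99 and 6.39 in HH, a log2 fold change of -1.29 (adjusted p = 0.370). Mccc1, Mccc2, Pcca and Hibadh had log2 fold changes of -0.80, -0.59, -0.42 and -0.62. Pcca was the gene whose groups overlapped, at 5.72 and 6.25 in CC_l and 5.41 and 5.75 in HH.

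None of the 4 libraries high in nuclear-retained RNA belongs to CC_l or HH, but they enter the shared estimate of the spread. Without them, 5 genes were called lower in HH (Bcat2, Bckdha, Dbt, Ivd and Pccb), with an adjusted edgeR p of 0.0174 for Bcat2 and 0.0271 for Ivd. The median stayed at -1.04, against -0.309 over all genes tested. Calls also rose over all genes tested, to 2472 of 22811 in either direction, from 1458 of 21464 with all 20 libraries. The effects of HH and of H were also compared as an interaction, and no gene of the route differed at an adjusted p under 0.05 or at a nominal p under 0.05, whereas 5.79% of all genes tested had a nominal p under 0.05. For Ivd the difference between the effects was 0.03 with a 95% confidence interval from -1.33 to 1.39, so sizeable differences in either direction are not excluded.

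Across both arms, Ivd was the gene that separated the mice on HFD from all the others. Its levels in the 5 H and HH mice lay between 5.20 and 6.56 log2 CPM, and the lowest of the other 15 mice was HC replicate 3 at 6.81. Among all genes tested, 0.461% lay lower in all 5 HFD mice than in every other mouse. For Bckdhb and Dbt, 2 of the 15 other mice reached into the range of the HFD mice, for Bcat2 3, and for Pcca 8.

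Other cell types moved with the diet in the same libraries. The summed level of 10 macrophage markers was between 218 and 399 CPM in C and between 703 and 3696 CPM in H, and all 10 markers had a positive log2 fold change with a median of 2.73. In HH it was between 3832 and 5212 CPM against 256 to 409 CPM in CC_l, with all 10 markers called higher and a median of 3.80. Endothelial markers (5 genes) were between 212 and 507 CPM in C and between 1012 and 1511 CPM in H. Of the 9 adipocyte markers, 5 had a negative log2 fold change in H (median -0.44) and 8 in HH (median -1.33). The part of the cell mix in the levels of the breakdown genes was not tested.

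**Figure D3:**
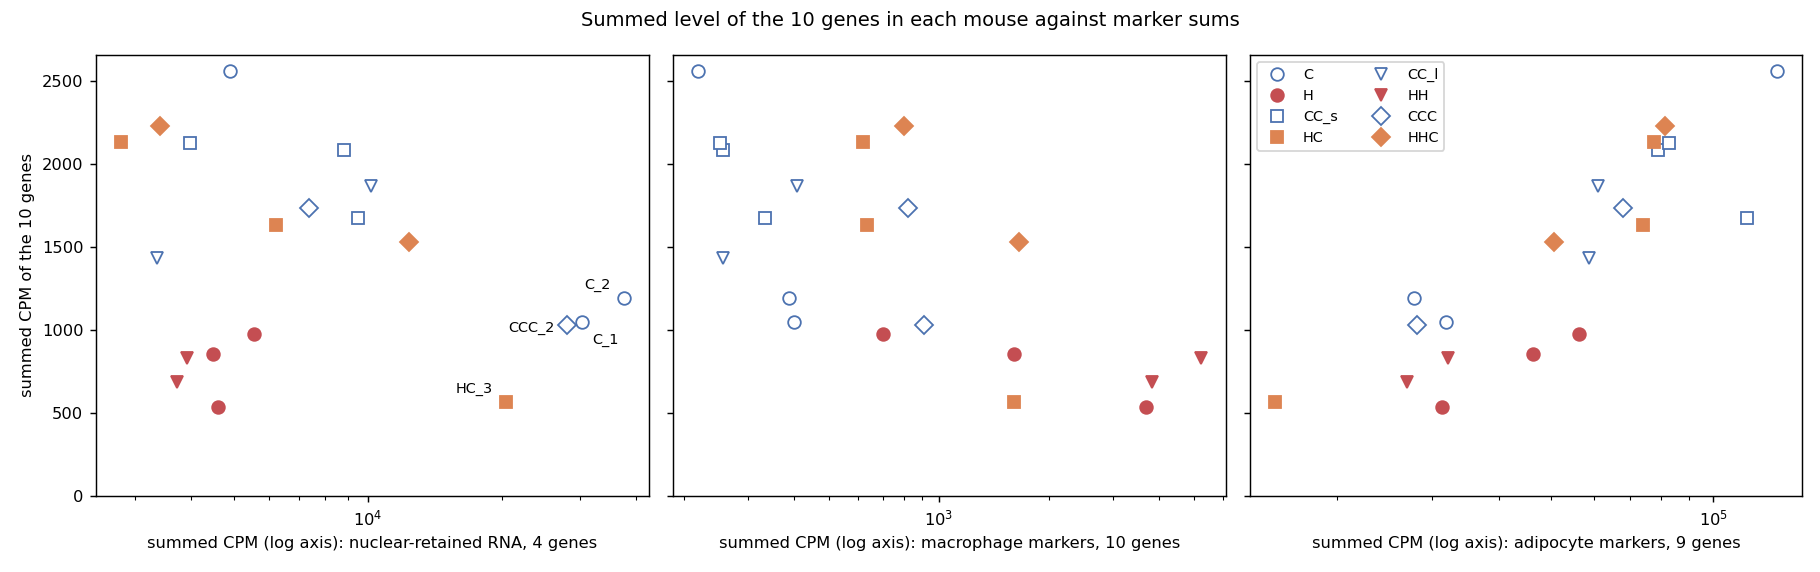
Summed CPM of the 10 genes (vertical axis, from 0) in each of the 20 mice against the summed CPM of nuclear-retained RNA, macrophage markers and adipocyte markers (log axes), with symbols for the groups. The 4 named libraries lie at 20395 to 37596 CPM of nuclear-retained RNA, and the H and HH mice lie at 537 to 976 CPM of the 10 genes.

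The promoters of the genes called in H, Bckdhb and Ivd, and of Pcca, which was called in no comparison, are shown side by side. For 9 of the 10 genes a window of 250 bases before the transcription start was taken from RefSeq (GRCm38.p6, the build called mm10), and Dbt was not matched. In the sequences below, written 5′ to 3′ on the strand of the gene and ending before the first annotated start, capitals mark CCAAT, the motif bound by NF-Y, or its reverse complement ATTGG.
Bckdhb, chr9:83924887-83925136, plus strand: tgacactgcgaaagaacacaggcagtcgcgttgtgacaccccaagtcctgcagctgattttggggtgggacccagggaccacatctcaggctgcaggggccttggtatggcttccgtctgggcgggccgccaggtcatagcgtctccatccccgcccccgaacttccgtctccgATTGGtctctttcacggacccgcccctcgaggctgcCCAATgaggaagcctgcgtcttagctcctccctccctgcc
Ivd, chr2:118861744-118861953, plus strand: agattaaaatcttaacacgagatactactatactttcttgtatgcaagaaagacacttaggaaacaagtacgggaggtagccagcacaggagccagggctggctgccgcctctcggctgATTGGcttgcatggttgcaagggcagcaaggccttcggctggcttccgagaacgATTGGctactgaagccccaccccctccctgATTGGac
Pcca, chr14:122534078-122534323, plus strand: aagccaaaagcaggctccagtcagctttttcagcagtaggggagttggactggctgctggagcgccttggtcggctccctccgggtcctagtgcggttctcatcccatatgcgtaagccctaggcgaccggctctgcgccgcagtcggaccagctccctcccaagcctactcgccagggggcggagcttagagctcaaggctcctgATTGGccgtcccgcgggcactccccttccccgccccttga

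CCAAT was searched on both strands of each window. Ivd held 4 matches, at 131, 77, 47 and 23 bases before the RefSeq start, of which the first 3 lie in the stretch shown. Mccc1 and Mccc2 held 3 each (in Mccc2, 2 of them overlap), Bckdhb held 2, Pcca and Hibadh held 1, and Bcat2, Bckdha and Pccb held none. At least 1 match was present in 6 of the 9 windows and in 33.9% of 32841 promoter windows of the same length, and 4 or more were present in 0.84% of them. Among other motifs searched on both strands, the GC box GGGCGG was found in 4 of the 9 windows (32.7% of all), the E-box CACGTG in 1 (6%), the nuclear receptor half-site AGGTCA in 1 (14%) and the cAMP response element TGACGTCA in none (1.5%). A match describes letters in a window and does not show that a factor binds there.

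The third question was how the genes stood after WL. In HC against CC_s, no gene of the route was called and none had a nominal edgeR p under 0.05, whereas 1.74% and 8.69% of all genes tested did in either direction. The log2 fold changes lay between -0.84 for Pccb and 0.56 for Pcca, with a median of -0.37 against 0.27 over all genes tested. Negative values were found for 8 of the 10 genes and for 35.5% of all genes tested, and no gene tested had an adjusted p under 0.05 in edgeR.

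Ivd stood at 7.85, 8.15 and 8.24 log2 CPM in CC_s and at 7.96, 7.63 and 6.81 in HC. Its log2 fold change was -0.55 with a 95% confidence interval from -1.41 to 0.32. Bckdhb stood at 7.37, 7.37 and 7.12 in CC_s and at 7.49, 7.32 and 6.31 in HC, with a log2 fold change of -0.17 and an interval from -1.03 to 0.69. In both genes 2 of the HC mice lay among or near the CC_s mice and replicate 3 lay below them.

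HC replicate 3, one of the 4 libraries high in nuclear-retained RNA, was the lowest of the HC mice for every gene of the route. Bcat2 stood at 8.13, 8.35 and 8.28 log2 CPM in CC_s and at 7.91, 7.78 and 6.08 in HC. Pccb stood at 7.96, 8.14 and 8.22 in CC_s and at 7.78, 7.63 and 5.52 in HC. Together with Dbt, at 7.46, 7.61 and 7.50 in CC_s and 7.19, 7.19 and 6.55 in HC, these were the 3 genes with every HC mouse below every CC_s mouse, as were 5.82% of all genes tested. Without HC replicate 3, the median over the 10 genes was 0.06, and without all 4 libraries high in nuclear-retained RNA it was 0.01. In HC, 7 of the 10 macrophage markers were called higher (median 1.93), with a summed level between 618 and 1604 CPM against 251 to 333 CPM in CC_s, and their part was not tested.

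In HHC against CCC, 9 of the 10 genes had a positive log2 fold change, with a median of 0.59 against -0.06 over all genes tested. Over all genes tested, 52.1% had a negative value. No gene of the route was called and none had a nominal edgeR p under 0.05, whereas 3.12% and 10.7% of all genes tested did in either direction. Bcat2 stood at 7.77 and 6.46 log2 CPM in CCC and at 8.12 and 7.66 in HHC, and Ivd at 7.86 and 7.28 in CCC and at 7.94 and 7.83 in HHC. Bckdha (7.48 and 5.73 in CCC, 7.70 and 7.49 in HHC) and Dbt (7.13 and 7.14 in CCC, 7.55 and 7.62 in HHC) were higher in both HHC mice than in both CCC mice, as were 8.49% of all genes tested. CCC replicate 2 and HHC replicate 2 decided the median, which was 0.10 without the former and 0.06 without the latter. Without the 4 libraries it was 0.18. In the same comparison the 5 endothelial markers had a median log2 fold change of -2.04 with 2 called lower, and no macrophage marker was called (median 0.72), and their part was not tested.

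Bckdhb was the gene with a negative log2 fold change in HHC (-0.56, 95% confidence interval from -1.62 to 0.50). It stood at 7.35 and 8.05 log2 CPM in CCC and at 6.41 and 7.68 in HHC, so that the groups overlapped. The downstream genes differed widely between the HHC mice. Mccc2 stood at 5.00 and 7.52 in them, Pcca at 5.27 and 6.76, and Hibadh at 7.35 and 8.93. The 2 mice of this group therefore give little precision for these genes.

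Whether the difference from control changed between HFD and WL was tested as an interaction. Between HHC and HH, the effect was more positive after WL for all 10 genes, with a median difference of 1.43 against 0.01 over all genes tested. Bcat2 (2.50, 95% confidence interval from 0.47 to 4.54), Ivd (1.89, from 0.38 to 3.40) and Dbt (1.50, from 0.05 to 2.95) had a nominal edgeR p under 0.05, as did 4.72% of all genes tested in this direction. None had an adjusted p under 0.05, the lowest being 0.212 for Ivd, and 0.815% of all genes tested did. DESeq2 gave an adjusted p under 0.05 for Bcat2 and Ivd. Leaving out CCC replicate 2 brought the values to 1.97 for Bcat2 and 1.61 for Ivd with nominal p-values of 0.0811 and 0.0665. Without the 4 libraries, which leaves CCC replicate 1 as the only CCC mouse, the median difference was 1.23, against 0.35 over all genes tested. With all 20 libraries, markers of other cell types moved in the same interaction. The medians were -3.24 for the 10 macrophage, -3.49 for the 6 progenitor and -4.92 for the 5 endothelial markers. Of these, 6, 4 and 5 had a nominal edgeR p under 0.01 and a size of at least 1. Their part in the differences of the breakdown genes was not tested.

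Between HC and H, Bckdhb had the one interaction with a nominal edgeR p under 0.05 (1.57, 95% confidence interval from 0.35 to 2.80, adjusted p = 0.343), and the value for Ivd was 1.08 (from -0.14 to 2.30). In the same direction 9.83% of all genes tested had a nominal p under 0.05 and no gene had an adjusted p under 0.05. The median over the 10 genes was 0.57, against 0.31 over all genes tested. Without the 4 libraries, which leaves C replicate 3 as the only C mouse, the medians were 1.45 and -0.18. In that fit the value for Bckdhb was 1.35, and with 1 C mouse only the size is given.

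Chow-fed mice of different ages served as a background for these comparisons. In CC_s against C, 1 of the 10 genes had a negative log2 fold change (median 0.31), as did 56.3% of all genes tested, and in CCC against CC_l 8 had one (median -0.31), as did 51.6%. No gene of the route was called in either comparison, against 2.45% and 2.66% of all genes tested. Bckdhb, the gene lower in CC_s (-0.72, adjusted p = 0.495), was also one of those higher in CCC (0.47, adjusted p = 0.759). Its levels were highest in libraries high in nuclear-retained RNA, C replicates 1 and 2 (8.07 and 8.23 log2 CPM) and CCC replicate 2 (8.05). C replicate 3 stood at 7.68 and CCC replicate 1 at 7.35. The part of these libraries in the 2 differences was not tested.

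The ratios between subunits of one enzyme were compared as well, and none differed from control past the threshold. The log2 ratio of Pcca to Pccb, per kilobase of exon, was -3.06 ± 0.57 (SD, n = 3) in C and -2.18 ± 0.50 (n = 3) in H. It was -3.55 ± 0.40 in CC_s and -2.12 ± 0.32 in HC, a difference of 1.43 that separated all HC mice from all CC_s mice (two-sided exact permutation test, p = 0.1, which is the lowest value that 3 against 3 mice allow). In the long arm it was -2.39 ± 0.10 (n = 2) in CC_l and -1.52 ± 0.04 (n = 2) in HH (two-sided exact permutation test, p = 0.33, the lowest value that 2 against 2 mice allow). After long HFD and WL the order was turned, with -2.62 ± 0.85 in HHC and -2.199 ± 0.72 in CCC. For Bckdha to Dbt, the ratio was 0.07 ± 0.46 in C and 1.11 ± 0.27 in H (two-sided exact permutation test, p = 0.1). The 4 libraries high in nuclear-retained RNA, among them C replicates 1 and 2, had the lowest values of this ratio, between -0.59 and 0.21. C replicate 3 stood at 0.45. The part of these libraries was not tested. Mccc1 to Mccc2 differed from control by -0.28 to 0.13 in the 4 comparisons. Over all 16 ratio tests, the lowest Benjamini-Hochberg adjusted p was 0.761, so no ratio passed.

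**Figure D4:**
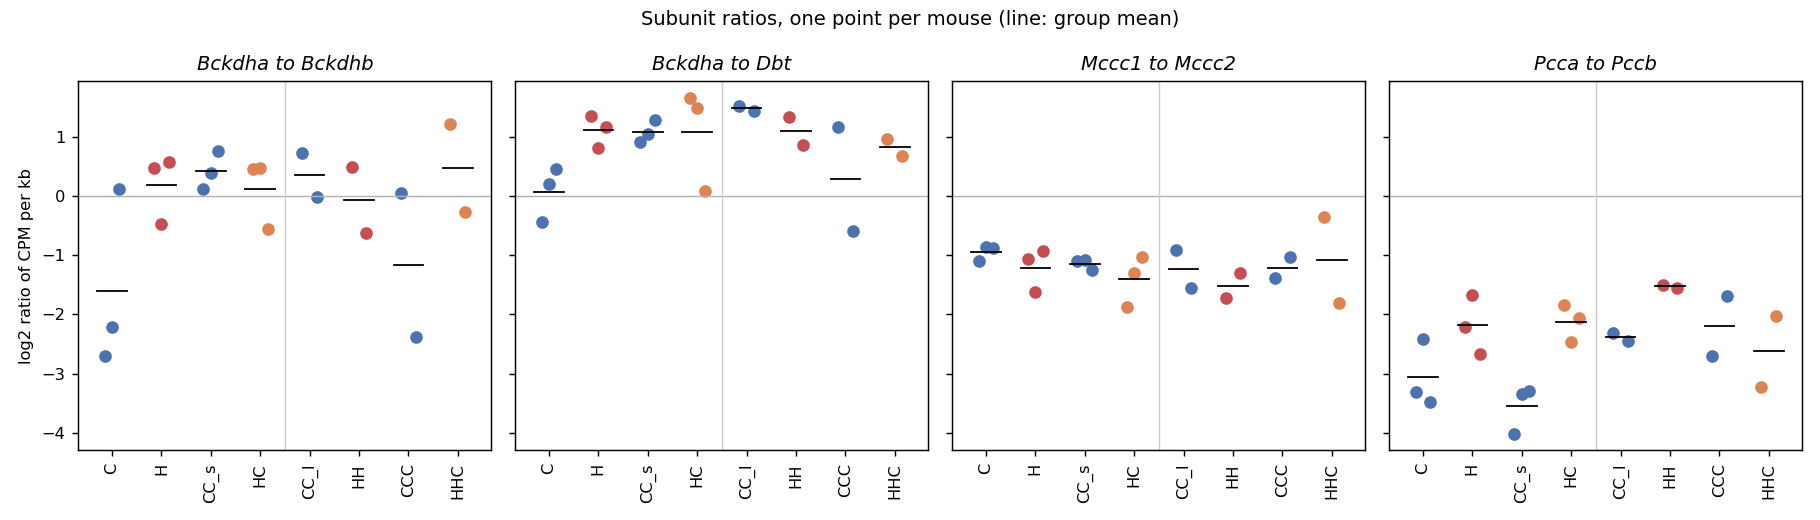
Log2 ratio of the levels per kilobase of exon (vertical axis) for 4 pairs of subunits in each of the 20 mice (points) by group (horizontal axis), with lines at the group means. The Pcca to Pccb ratio was -3.55 on average in CC_s and -2.12 in HC, and Mccc1 to Mccc2 stayed within a narrow range in most groups.

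Across the 20 mice the 10 genes rose and fell together to different degrees. Pearson's r over the 45 pairs had a median of 0.714 and ranged from 0.126 to 0.939, with all points sharing the libraries and their depth and quality. Bckdhb was the gene least like the rest, with a median r of 0.458 to the other 9, and Hibadh the most like them with 0.824. Of 9351 further genes with a mean log2 CPM of at least 3, the levels of Acad11 (r = 0.975), Pgm1 (0.965), Echs1 (0.964), Samm50 (0.963) and Eci3 (0.960) over the 20 libraries were most like the mean standardised level of the 10 genes. Acad11 is an acyl-CoA dehydrogenase, and Echs1 is an enoyl-CoA hydratase that itself takes part in valine breakdown.

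A wider list of 25 genes of the pathway, its regulators and its transporters was then examined. In H, 1 of the 25 was called lower and none higher, and the median log2 fold change was -0.55 with 18 lower. In HC none was called (median -0.15), in HH 1 was called in each direction (median -0.71, with 21 lower), and in HHC 2 were called higher and none lower (median 0.18). Of all genes tested, 3.57% were called higher in H, 4.92% in HH and 0.447% in HHC. Beside these, the 16 TCA cycle genes had medians of -0.54 in H and -0.76 in HH, and the 16 tested genes of fatty acid oxidation -0.06 and -0.20. Of the TCA cycle genes 15 were lower in H and 15 in HH, and of the fatty acid oxidation genes 8 and 8. The 10 breakdown genes had a lower median than both lists (-0.97 in H and -1.04 in HH). The 9 adipocyte markers had medians of -0.44 in H and -1.33 in HH.

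The dehydrogenase complex is switched off by the kinase Bckdk and switched on by the phosphatase Ppm1k. Bckdk was called in no comparison of the fit with all 20 libraries, with log2 fold changes of -0.55, -0.57, -1.01 and 0.08 in H, HC, HH and HHC. In H its value was -1.42 without the 4 libraries, a fit with 1 C mouse, and in HH it was called lower in 2 of 10 alternatives. Ppm1k stood at 4.78, 4.62 and 4.97 log2 CPM in C and at 3.89, 4.02 and 4.11 in H, with every H mouse below every C mouse (log2 fold change -0.79, adjusted p = 0.169). It stood at 4.05 and 4.57 in CC_l and at 3.45 and 3.52 in HH (-0.85, adjusted p = 0.232). In HHC it was called higher, at 5.98 and 5.06 against 4.61 and 4.51 in CCC (1.03 ± 0.36, nominal edgeR p of 0.00988, adjusted p = 0.318), and the call held in 1 of the 4 fits that each left out 1 mouse (0.49 without HHC replicate 1). The interaction between HHC and HH was 1.88 (adjusted p = 0.0840).

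Bcat1, the cytosolic aminotransferase, was called higher in HHC, at 3.96 and 5.79 log2 CPM against 3.08 and 0.50 in CCC. Its log2 fold change of 2.87 ± 0.92 (adjusted p = 0.285) was 1.67 without HHC replicate 2 and no longer called, and the call held in 2 of the 4 fits that each left out 1 mouse. Klf15, a transcription factor known to act on genes of branched-chain amino acid breakdown, was called lower in HH, at 4.67 and 4.30 against 6.01 and 6.32 in CC_l (-1.67 ± 0.52, adjusted p = 0.105). That call held in 1 of the 4 fits that each left out 1 mouse, in which the value lay between -1.86 and -1.48. It was 5.90, 5.81 and 4.89 in HC against 6.23, 6.86 and 6.75 in CC_s, a log2 fold change of -1.04 that was not called. Hibch, which acts just before Hibadh in valine breakdown, stood at 6.91, 6.88 and 8.44 in C and at 5.92, 5.45 and 6.13 in H (-1.75 ± 0.66, adjusted p = 0.187). It was not called there, but it was called lower in 6 of 10 alternatives, and the value over all 10 lay between -2.79 and -1.50. Of the 6 fits that each left out 1 mouse, 0 called Hibch, and its value was -1.04 without C replicate 3.

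Of the transporters, Slc3a2, the heavy chain that pairs with the amino acid carrier Slc7a5, was called higher in HH. It stood at 8.13 and 7.24 log2 CPM there and at 5.68 and 5.76 in CC_l, a log2 fold change of 2.03 ± 0.48 with an adjusted edgeR p of 0.0382. Without HH replicate 1 it was 1.54 and not called (nominal edgeR p of 0.0118). Slc7a5 had a log2 fold change of -1.86 in HH and was not called (nominal edgeR p of 0.0831). Slc43a1, another carrier of large neutral amino acids, was called lower in H, at 2.18, 2.203 and 1.88 against 4.16, 4.18 and 3.18 in C (-1.83 ± 0.51, adjusted p = 0.0716). The call was lost without H replicate 3 (nominal edgeR p of 0.0112). Without the 4 libraries high in nuclear-retained RNA, its value was -0.98 and it was not called.

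**Figure D5:**
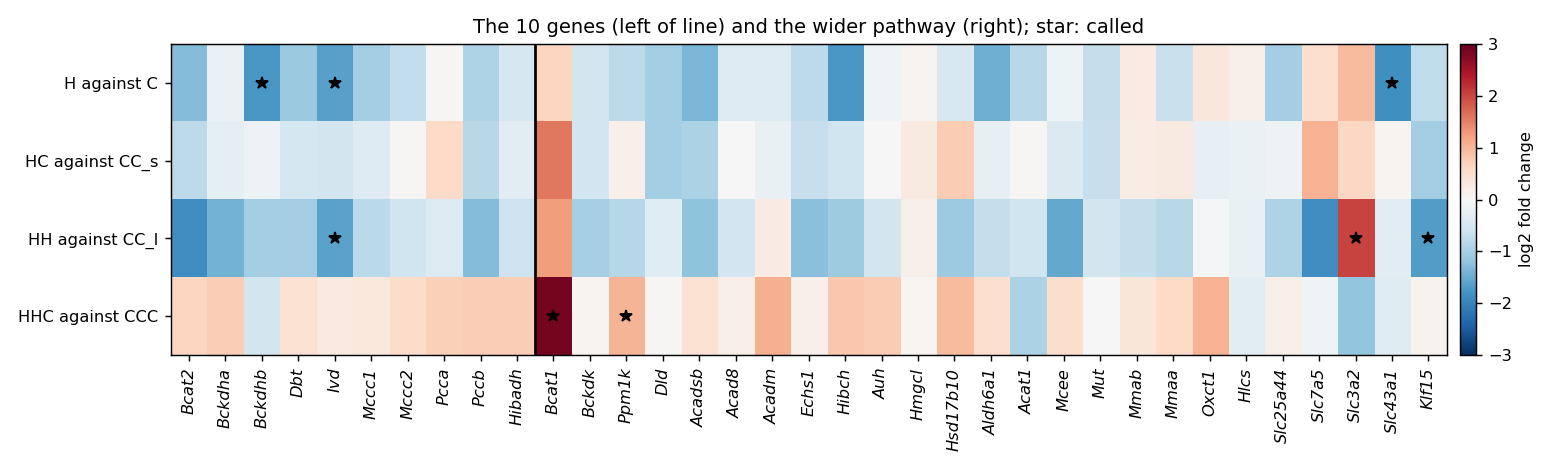
Log2 fold change (colour scale, from -3 to 3) of the 10 genes, left of the line, and of the wider list, right of it, in each HFD or WL group against its chow control (rows), with stars for genes past the cut-offs. Stars stand for Bckdhb, Ivd and Slc43a1 in H, for Ivd, Slc3a2 and Klf15 in HH, and for Bcat1 and Ppm1k in HHC.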

How the data were processed

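TRAP–seq libraries of 20 mice in 8 groups were analysed, each mouse being a biological replicate per the labels. Per the submitters' processing notes and the study's methods, the authors used FastQC 0.11.9, Trim Galore 0.6.6, HISAT2 2.2.1 (mm10) and Subread 2.0.1 (featureCounts), and deposited whole-number read counts per gene without normalization. The gene annotation behind these counts, their strandedness and the treatment of read pairs are not given in the sources used here. Between 74.4% and 89.2% of the nonzero counts per library were even numbers.

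Symbols, positions and exon lengths were taken from GENCODE vM21 (98.2% of genes matched). The deposited counts passed filterByExpr, TMM normalization and the quasi-likelihood test of edgeR 4.0.16 (R 4.3.3), with 20 libraries in 8 groups in one fit. Called genes had a nominal p under 0.01 together with a log2 fold change of 1 or more in either direction, and Benjamini-Hochberg adjusted p-values were computed over all 21464 genes tested. The biological coefficient of variation was 0.68. A count of 0 allows up to 3 counts, between 0.0815 and 0.251 CPM, for counting error only. No libraries of a group agreed within sampling noise (chi-square per degree of freedom between 41.7 and 731 over 16 pairs). On simulated data for H against C with a log2 fold change of 2, 99 of 200 changed genes among 21464 were recovered (49.5%), none in the wrong direction, and 179 unchanged genes were called.

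The members, the lists and the tests were chosen with earlier results of these data known. Named genes were the 10 members, genes of the wider list that were called or had one of the 2 largest absolute changes in a comparison, Bckdk and Ppm1k, and the 5 genes most like the members. The alternatives were RLE normalization, library size alone, DESeq2 1.42.0, the likelihood ratio test, no filter, halved counts, only the compared groups, the replicate number as a block, an adjusted p threshold and leaving out each mouse. Fits without 4 libraries, or with nuclear-retained RNA as a covariate, were chosen after seeing the data.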

Additional observations from a re-analysis of the deposited data

Results flagged for a closer look

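The effect on Slc3a2 differed between HHC and HH. Against the own control, the log2 fold change was 2.03 in HH but -1.17 in HHC, and the interaction was -3.21 with a 95% confidence interval from -4.63 to -1.79 (quasi-likelihood test of edgeR, Benjamini-Hochberg adjusted p = 0.0369). Slc3a2 stood at 5.27 and 5.82 log2 CPM in HHC and at 5.995 and 7.23 in CCC, where the higher value came from replicate 2, one of the libraries high in nuclear-retained RNA. Without that mouse the log2 fold change in HHC was -0.43 and the interaction was -2.48. Over the 8 fits that each left out 1 mouse of the long arm, the interaction lay between -3.72 and -2.48. Each of these fits leaves 1 mouse in a group, so only the size is given. With all 20 libraries, 0.815% of all genes tested had an adjusted p under 0.05 in this interaction. The median was -3.24 for the macrophage, -3.49 for the progenitor and -4.92 for the endothelial markers. Their part in the difference of Slc3a2 was not tested.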

How the results depend on the processing

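The number of genes called lower in H was 2 and became 1 with an adjusted p under 0.05, 6 without the 4 libraries highest in nuclear-retained RNA and 8 with that RNA as a covariate. The number in H was 3 with RLE normalization, DESeq2 or the likelihood ratio test, where Dbt was added. With no filter it was also 3, with Bcat2 added. Leaving out C replicate 1, C replicate 2 or H replicate 3 gave 3 as well, each time with Dbt added. The median over the 10 genes in H lay between -1.21 and -0.35 when 1 mouse was left out, and was -1.68 with the covariate. In HH, 1 gene was called, against 2 with RLE normalization, library size alone, DESeq2 or the likelihood ratio test, 4 with only the 2 groups compared, 5 without the 4 libraries and 5 with the covariate, 0 with an adjusted p, and 0 whenever 1 mouse was left out. With no filter, the gene called in HH was Bcat2 and not Ivd. An adjusted p under 0.05 was reached in HH by Bcat2 and Ivd with DESeq2 and with only the 2 groups compared, and by Bcat2 with no filter. None reached it with RLE normalization, library size alone, the likelihood ratio test, halved counts or the replicate number as a block. Over all genes tested, 2472 of 22811 were called in either direction in HH without the 4 libraries. With the covariate, 3215 of 21464 were called, against 1458 of 21464 in the main analysis. The median in HH lay between -1.30 and -0.78 without 1 mouse. In HC and in HHC, 0 genes were called in the main analysis and in each alternative. For HHC against HH, 2 genes had an adjusted p under 0.05 with DESeq2 and 0 with edgeR.

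Genes near 0 changed sign. In H, Pcca was -0.026 with RLE normalization and with DESeq2, -0.05 with only the 2 groups, -0.52 without the 4 libraries and -0.83 with the covariate, and Bckdha was 0.084 with library size alone. In HC, Mccc2 was -0.023 with halved counts and -0.27 with the covariate, and without the 4 libraries Bckdha was 0.10, Bckdhb 0.056 and Hibadh 0.10. In HHC with the covariate, Mccc1 was -0.25, Mccc2 -0.40 and Hibadh -0.052. Leaving out 1 mouse moved Pcca between -0.20 and 0.51, Bckdha between -0.52 and 0.85 and Hibadh between -0.74 and 0.23 in H. In HC it moved Mccc2 between -0.66 and 0.50, Pcca between -0.063 and 0.99, Bckdha between -0.62 and 0.15, Bckdhb between -0.40 and 0.11, Mccc1 between -0.76 and 0.005 and Hibadh between -1.22 and 0.16. In HHC it moved Mccc1 between -0.33 and 0.74, Mccc2 between -1.22 and 1.30, Pcca between -0.22 and 1.27 and Hibadh between -0.26 and 1.94. The cause was not tested.

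Same-numbered mice did not deviate together (r between -0.28 and 0.19), so the numbers were not taken as pairs. With the replicate number as a block, 2 genes were called in H and 0 in HH. Normalization moved the median of all genes in H from -0.15 with TMM to -0.23 with RLE and 0.00 with library size alone, and in HC from 0.27 to 0.28 and 0.52.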
